A study of Mus musculus with 2 samples.

Results

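Nppb, which encodes B-type natriuretic peptide, and the natriuretic peptide receptor genes Npr1, Npr2 and Npr3 were followed in cultured mouse lung fibroblasts, with RNA counted cell by cell in droplets from the 3′ ends of transcripts. These 4 genes were taken by symbol from the 27998 genes listed in the files, each symbol being listed 1 time. They were proposed with earlier values of the same libraries in view, so their levels are a description. The cells came from wild-type C57BL/6 mice, an inbred laboratory strain, and were grown on plastic in advanced DMEM/F12 with 10% serum up to passage 3. The control library holds cells given vehicle, and the stimulated library cells treated for 14 days, with both cultures started from the same lung per the labels. The protocol names 10 µM rosiglitazone (an agonist of the nuclear receptor PPARG), 1 µM SB4315442 and, at 4 µM, rhBMP4 (a bone morphogenetic protein), alone or combined, and 1% ITS+3 supplement as the way to a lipofibroblast-like state; which of these the stimulated cells received is not stated in the labels. There is 1 library per group, so no test across samples was possible, and every interval below is a 95% interval for counting error alone.

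Natriuretic peptides are small ring-shaped hormones best known from the heart, where stretch of the muscle raises Nppb and its neighbour gene Nppa (atrial natriuretic peptide). Npr1 encodes the receptor for these 2 peptides and Npr2 the receptor for C-type natriuretic peptide (Nppc); both are membrane guanylate cyclases that make cyclic GMP inside the cell. Npr3 encodes the clearance receptor, which binds all 3 peptides, has no cyclase domain and removes them from the surroundings. Cyclic GMP relaxes smooth muscle and has been described to oppose fibroblast activation, and in the lung the pathway is known mainly for relaxing vessels and airways, while Acta2, the smooth muscle actin gene, marks the contractile myofibroblast.

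After filtering, 4703 control cells with a median of 19634 unique molecular identifiers (UMIs, 1 per captured molecule) and 7468 stimulated cells with a median of 15379.5 were kept. Clusters named fibroblast-like made up 79.0% of the control and 82.0% of the stimulated cells, and 53 cell barcodes occurred in both libraries. A macrophage-like cluster held 147 control cells and 1 stimulated cell. The summed level of 12 macrophage markers was 746 CPM (a gene's UMIs scaled to the library's total) for the control and 14.2 CPM for the stimulated library, with 12 and 2 of them at 1 CPM or more and Adgre1 at 0 in the stimulated library. The 8 smooth muscle markers summed to 1275 and 229 CPM, with Pcp4 at 0 in both, and the 8 cardiomyocyte markers to 9.42 and 2.01 CPM, with Myh6 at 0 in the control and Actc1 and Ryr2 at 0 in the stimulated library. No cluster was named as smooth muscle-like or cardiomyocyte-like. Actg2 and Cnn1, at 660 and 439 CPM in the control library, are smooth muscle markers that are also among the contractile genes followed below. The part of macrophages or other cell types in the results on the 4 genes was not tested, except where a level in them is given.

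Nppb was a rare transcript, and rarer still in the stimulated library. The control library held 181 Nppb UMIs in 95 of 4703 cells, a level of 2.04 CPM (1.76 to 2.36). The stimulated library held 7 UMIs in 4 of 7468 cells, 0.0597 CPM (0.0240 to 0.123), as 3, 2, 1 and 1 UMIs. With each cell thinned to 5000 UMIs, 27 of 4077 control cells, 0.662%, and 1 of 6708 stimulated cells, 0.0149%, had an Nppb UMI. The level was 34.2-fold lower in the stimulated library (16.3 to 86.3), and 53.7-fold lower when each cell counted equally. Nppa behaved alike, with 64 control UMIs in 40 cells against 2 stimulated UMIs in 2 cells. However, 54.5% of its 3′ end windows match Gm13054, a gene on the opposite strand, so its value is uncertain. Gm13054 itself held 11 control and 13 stimulated UMIs, and its part in the Nppa counts was not tested. Nppc, the remaining ligand gene, differed the other way, at 2.40 CPM (control) and 3.84 CPM (stimulated), a fold of 1.60 (1.35 to 1.89).

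Promoter windows of all 4 genes and of Acta2 and Nppa were found in RefSeq (build GRCm38.p6; the build of the counts is not given in the sources used here). Those of Nppb, Nppa and Acta2 are shown because these 3 genes were lower together in the stimulated library and because, as described further on, Nppb was highest in the cells with most Acta2. Each runs 5′ to 3′ from 250 bases before to 50 after the transcript start, with matches in capitals. The Nppb window is chr4:147985650-147985949 (plus strand), that of Nppa chr4:148000472-148000771 (plus) and that of Acta2 chr19:34255324-34255623 (minus). Nppa is the next protein-coding gene after Nppb in GENCODE M21.
Nppb: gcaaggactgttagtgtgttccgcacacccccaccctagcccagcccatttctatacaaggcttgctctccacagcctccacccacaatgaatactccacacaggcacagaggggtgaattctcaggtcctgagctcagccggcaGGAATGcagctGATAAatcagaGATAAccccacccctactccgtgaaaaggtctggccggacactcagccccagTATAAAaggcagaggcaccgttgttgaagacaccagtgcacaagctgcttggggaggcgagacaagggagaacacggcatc
Nppa: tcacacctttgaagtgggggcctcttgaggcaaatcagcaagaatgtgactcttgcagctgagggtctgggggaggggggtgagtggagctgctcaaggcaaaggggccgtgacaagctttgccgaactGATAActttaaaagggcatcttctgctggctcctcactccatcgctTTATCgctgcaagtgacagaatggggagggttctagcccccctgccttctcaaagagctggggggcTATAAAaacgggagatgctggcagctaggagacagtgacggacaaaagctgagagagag
Acta2: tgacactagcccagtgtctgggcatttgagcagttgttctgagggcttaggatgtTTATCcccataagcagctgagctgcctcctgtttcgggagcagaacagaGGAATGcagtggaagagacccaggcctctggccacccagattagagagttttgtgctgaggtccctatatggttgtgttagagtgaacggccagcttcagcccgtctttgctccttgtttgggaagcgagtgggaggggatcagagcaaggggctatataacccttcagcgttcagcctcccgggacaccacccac
Searched on both strands were GATAA (bound by GATA factors), CATTCC (the M-CAT motif, bound by TEAD factors), TATAAA (the TATA box) and the CArG box of serum response factor in its strict form. No matches overlap here. The Nppb window holds CATTCC on the opposite strand at -105, GATAA at -94 and -83, and TATAAA at -31 from the start. The Nppa window holds 2 GATAA matches and 1 TATAAA, and the Acta2 window 1 GATAA and 1 CATTCC, at -146 on the opposite strand. The stretch ccctatatgg in the Acta2 window differs from the strict CArG form by 1 base, so the search did not mark it. Of 32851 windows of this length 25.4% hold GATAA, 14.7% CATTCC, 13.6% TATAAA and 1.63% the CArG box. The windows of Npr1, Npr2 and Npr3 hold none of these motifs. A match describes the sequence alone.

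Among the receptors, the clearance receptor gene stood apart. Npr3 had 5498 UMIs in 2438 control cells, 62.1 CPM (60.4 to 63.7), and 309 UMIs in 223 stimulated cells, 2.64 CPM (2.35 to 2.95), 23.5-fold lower (21.0 to 26.5). At 5000 UMIs per cell 24.4% of 4077 control cells carried an Npr3 UMI (23.0 to 25.7%) against 1.21% of 6708 stimulated cells (0.960 to 1.5%). Without this thinning to equal depth the shares were 51.8% and 2.99%.

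Npr2, the C-type peptide receptor gene, differed little, with 921 UMIs in 800 control cells (10.4 CPM) and 1508 UMIs in 1325 stimulated cells (12.9 CPM), a fold of 1.24 (1.14 to 1.34). Npr1, the receptor gene for B-type and atrial peptide, was barely detected, with 14 UMIs in 14 control cells and 21 UMIs in 21 stimulated cells. No cell of either library held more than 1 Npr1 UMI. The Npr1 fold of 1.13 (0.550 to 2.41), or 1.86 in fibroblast-like cells alone, leaves a difference in either direction undetectable at this depth. Opposite-strand genes over Npr1 (Gm16048) and Npr2 (Gm12473) held at most 2 UMIs in a library and match 3.64% and 5.56% of their 3′ end windows.

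Of the 4 genes, Npr2 and Npr3 reached the mean of 5 CPM set for comparing genes, and of these Npr3 was at least 2-fold lower. By the same rule 5.05% of all 8787 genes compared were at least 2-fold lower and 3.3% at least 2-fold higher, and 26 genes, Npr3 among them, had a fold as low as that of Npr3. Nppb was below that mean. Among the 2943 genes at 1 to 5 CPM in the control library, 16.4% were at least 2-fold lower.

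**Figure D1:**
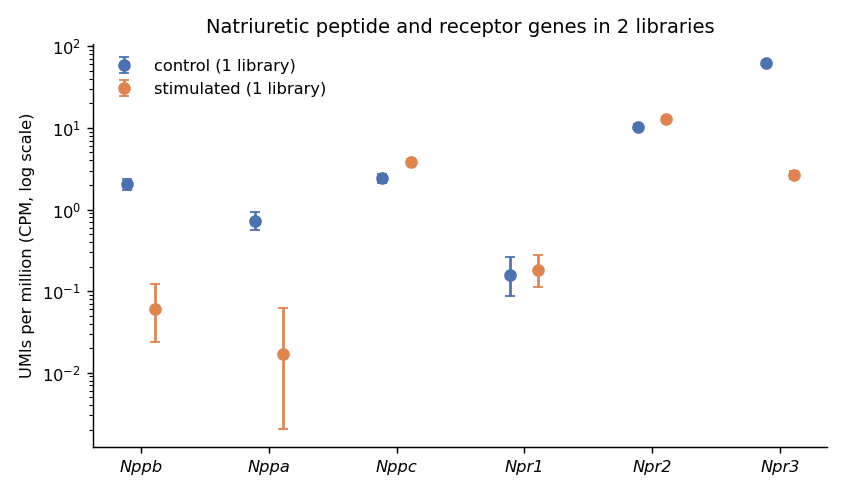
Level of the natriuretic peptide genes Nppb, Nppa and Nppc and the receptor genes Npr1, Npr2 and Npr3 in the control (blue) and stimulated (orange) libraries, in CPM on a log axis. Points are library sums and bars exact Poisson 95% intervals; Nppb, Nppa and Npr3 are lower in the stimulated library, Npr3 at 62.1 against 2.64 CPM, while both Npr1 intervals overlap.

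Which cells hold Npr3 was asked with clusters made without the 4 genes and Acta2. All 5 control fibroblast-like clusters with at least 50 cells carried Npr3. The highest was cluster 3, 213 cells led by the steroid dehydrogenase gene Hsd3b6 and by Gzmd, Cxcl14 and Gzme, at 150 CPM (138 to 163). Cluster 1, 354 cells led by the proteoglycan genes Lum and Dcn, followed at 87.8 CPM (80.8 to 95.2). The other 3, cluster 0 (led by Cemip and Meg3), cluster 2 (led by Mmp3) and the cycling cluster 4, were at 60.5, 58.4 and 52.8 CPM. The intervals of clusters 0 and 2 overlap, as do those of clusters 2 and 4.

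The mesothelial-like and macrophage-like control clusters and cluster 7 held less Npr3. Mesothelial-like cells were at 11.5 CPM (6.15 to 19.7) and cluster 7, unnamed cells with Acta2, Tagln and Acta1 among their leading genes, at 15.5 CPM (10.0 to 22.9). Macrophage-like cells were at 26.5 CPM, and 9.30% of them carried an Npr3 UMI at 5000 UMIs (4.90 to 15.7%, 129 cells) against 25.8% of fibroblast-like cells (24.4 to 27.2%, 3679 cells). Their median depths were 10554 and 21462 UMIs. The macrophage-like level of Npr3 was 41.3% of the fibroblast-like level (30.1 to 55.3%), while for Acta2 it was 23.0% and for the matrix genes Col1a1, Col3a1, Sparc and Fn1 24.5, 25.8, 29.3 and 82.8%. Npr2 stood at 55.1% (26.3 to 102). Whether free RNA or joined cells give these UMIs was not tested, and the stimulated library had 1 macrophage-like cell, too few to measure its background. The shallow unnamed control clusters 5 and 13, with medians of 1879 and 2908 UMIs, were at 61.0 and 144 CPM, the latter from 30 UMIs (97.0 to 205), an interval that overlaps that of cluster 3.

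In the stimulated library the remaining Npr3 sat mostly in 1 cluster. Cluster 14, 540 unnamed cells led by Hsd3b6 and the smooth muscle marker Des, held 200 of the 309 stimulated Npr3 UMIs, 64.7% of them in 7.23% of the cells, at 21.8 CPM (18.9 to 25). The 4 fibroblast-like clusters with at least 50 cells (9, 10, 11 and 15) were at 0.906 to 1.35 CPM, with overlapping intervals. Cluster 14 shares 5 of its 10 leading genes with control cluster 3: Fxyd6, Gzme, Hsd3b6, Limch1 and Mcpt8. Among clusters with a median of at least 5000 UMIs, each library thus had its highest Npr3 level in a cluster with these leading genes.

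Between these counterparts Npr3 was 6.89-fold lower in the stimulated library (5.85 to 8.14). Between the cycling clusters 4 and 11, which share 7 leading genes, it was 55.5-fold lower (40.6 to 77.7). Between clusters 0 and 10, which share Meg3 and Tshz2, it was 66.7-fold lower (49.4 to 92.4), and between clusters 2 and 15, which share 4, it was 57.1-fold lower (31.7 to 115). Between the shallow unnamed clusters 5 and 12, which share 6, it was 20.9-fold lower (7.86 to 78.7), from 79 and 4 UMIs. The level was thus lower in each of these pairs. It was least so in the Hsd3b6 cells, though their interval overlaps that of clusters 5 and 12. Over fibroblast-like cells alone, which leave out cluster 14 (unnamed because the smooth muscle marker Des leads it) but keep its counterpart cluster 3, Npr3 was 66.5-fold lower, and without clusters 3 and 14 it was 57.7-fold lower.

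Npr2 varied less than Npr3 across the control fibroblast-like clusters. In the same 5 control fibroblast-like clusters it ran from 9.29 to 15.9 CPM and in the 4 stimulated ones from 11.7 to 15.7 CPM. Cluster 1, the Lum and Dcn cells, was highest among control clusters of at least 5000 UMIs per cell in the median (13.0 to 19.2), and its interval overlaps that of cluster 3 at 13.0 CPM but lies above those of clusters 0 (9.68 to 11.7), 2 (8.01 to 12.2) and 4 (8.05 to 10.7). Stimulated cluster 10 (13.1 to 15.3) lay above the cycling cluster 11 (10.7 to 12.7). Cluster 7 was lowest at 1.86 CPM (0.384 to 5.44), from 3 UMIs. The shallow unnamed control cluster 13 was at 52.7 CPM (26.3 to 94.3), above cluster 1, from 11 UMIs. Of the 14 control Npr1 UMIs, 5 came from the 57 mesothelial-like cells, 35.7% of the UMIs in 1.21% of the cells.

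**Figure D2:**
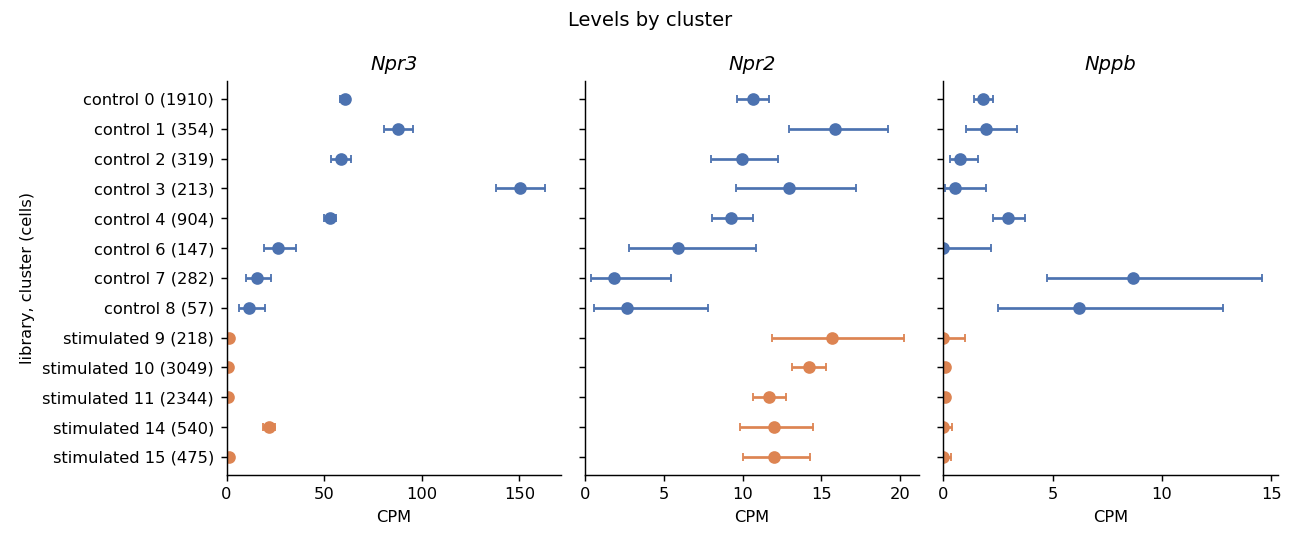
Level of Npr3, Npr2 and Nppb, in CPM (x axes, each from 0), in clusters with at least 50 cells of a library and a median of at least 5000 UMIs. Each row is a library and cluster with its number of cells, and bars are exact Poisson 95% intervals; Npr3 is highest in control cluster 3 at 150 CPM and, among stimulated clusters, in cluster 14 at 21.8 CPM.

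Nppb came from few cells in the control library, spread over several clusters. Of the 95 cells with an Nppb UMI, 39 were in cluster 0, 28 in the cycling cluster 4, 9 in cluster 1, 7 in cluster 7, 6 in cluster 2, 4 in the mesothelial-like cluster 8 and 2 in cluster 3. Most held little: 68 cells had 1 UMI, 6 had at least 5, and the highest had 30 and the next 9. The 10 highest cells held 41.4% of all Nppb UMIs. Cluster 7 was highest at 8.68 CPM (4.75 to 14.6), and its interval overlaps that of the mesothelial-like cells at 6.22 CPM (2.50 to 12.8). The placing of Nppb by cluster depended on the clustering, as given in the section on processing. No Nppb UMI was seen in 147 macrophage-like cells. Of the 129 with at least 5000 UMIs none had one, which with 3 counts as the floor allows a share of up to 2.33%, above the 0.652% of fibroblast-like cells, so a background share of that size could not be told from 0 at this depth.

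The relation of Nppb to Acta2 was read within each library, with each cell thinned to 5000 UMIs and the cells split into 5 classes by their Acta2 UMIs, class 1 the lowest. Cells with equal Acta2 UMIs stayed together, so classes held 700 to 969 control cells and 910 to 2295 stimulated cells. In the control library Nppb was at 0.413, 0.571, 0.710, 1.04 and 7.33 CPM in classes 1 to 5, from 2, 2, 3, 4 and 29 UMIs. The first 4 intervals overlap and class 5 (4.91 to 10.5 CPM) lies above all of them. Its ratio to class 1 was 17.8 (4.49 to 154), and 11 without the 1 cell that held most Nppb. Among control genes at 1 to 5 CPM, the share that was 2-fold higher or more in class 5 than in class 1 was 9.28%, and the share as much lower 21.4%. Among control genes of at least 25 CPM these shares were 6.16% and 1.29%. Interval and ratio treat UMIs as independent, which clumping of Nppb in few cells breaks.

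Without thinning, class 5, 791 cells, held 115 of the 177 Nppb UMIs in these cells, 65.0%, in 44 cells, 5.56% of the class. In class 1, 5 of 969 cells, 0.516%, had an Nppb UMI. The median depth was 21845 UMIs in class 5 and 20761 UMIs in class 1, 0.126% and 11.7% of their cells were macrophage-like, and 17.2% and 13.4% were in cycle. With fibroblast-like cells alone the ratio was 13.9 (3.47 to 121). Within cluster 0 alone, cut into 3 classes by the Acta2 share of each cell's UMIs, the highest held 64 Nppb UMIs in 31 cells and the lowest 2 UMIs in 2 cells, a ratio of 33.1 (8.79 to 279). Within the cycling cluster 4 these were 49 UMIs in 14 cells and 5 UMIs in 5 cells, a ratio of 9.30 (3.73 to 29.9), or 3.61 without the cell that held 30. In both clusters the highest class thus held most of the Nppb UMIs.

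How tight the relation was in single cells could not be read from counts this sparse. Cells with an Nppb UMI had a median Acta2 level of 4740 CPM (quartiles 2183 and 8766) against 2014 CPM in the others, with a median depth of 22961 and 19548 UMIs. The 27 cells with at least 2 Nppb UMIs had a median of 6063 CPM. The cell with 30 Nppb UMIs was at 17636 CPM of Acta2 and also held 3 Nppa UMIs and no Npr3 UMI. Over 4077 cells Pearson's r of Nppb with Acta2 on log2(UMIs + 1) was 0.08, which in counts this sparse is no finding. The highest r of Nppb with any gene of at least 25 CPM that was ranked was 0.09, with Tpm1. Most Acta2-high cells had no Nppb UMI, which does not grade the relation at this depth. The stimulated library held too few Nppb UMIs for such a split: 4 of its 7 UMIs lay in class 5 and 3 in class 3.

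**Figure D3:**
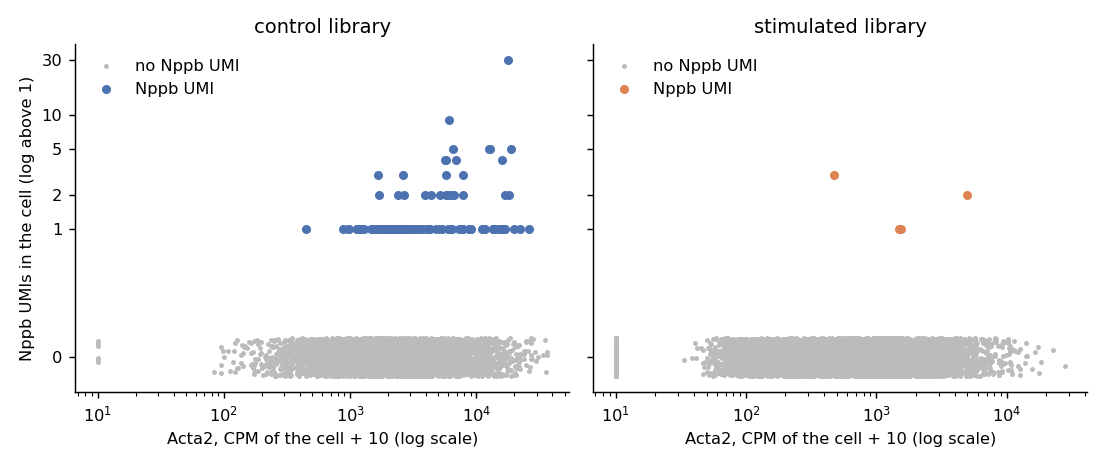
Nppb UMIs in each cell (y axis, log above 1) against the Acta2 level of the cell (x axis, CPM + 10, log scale) in the control and stimulated libraries. Grey points are cells without an Nppb UMI, spread at random around 0 to make them visible; the 95 control cells with Nppb lie mostly to the right, while 4 stimulated cells have any.

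The receptors did not follow Acta2 as Nppb did. Control Npr3 was at 47.1, 65.7, 76.9, 67.4 and 61.9 CPM in classes 1 to 5, a ratio of 1.32 between class 5 and class 1 (1.09 to 1.58), with its highest value in class 3. Ordered by the other contractile genes in place of Acta2, the ratio was 1.84 (1.53 to 2.22). Within clusters 0 and 4 the ratio of the highest to the lowest of 3 classes was 1.10 (0.995 to 1.22) and 1.02 (0.882 to 1.19). Control Npr2 ran from 8.52 to 13.0 CPM over the classes with overlapping intervals, a ratio of 0.836 (0.554 to 1.25). Stimulated Npr2 had a ratio of 0.853 (0.633 to 1.14). Stimulated Npr3 was at 2.18 CPM in class 1 and 4.18 CPM in class 5, a ratio of 1.92 (1.07 to 3.45) that turned to 0.778 in fibroblast-like cells alone. Of stimulated genes at 1 to 5 CPM 3.99% were at least 2-fold higher and 8.99% lower in class 5 than in class 1, and of those with at least 25 CPM 1.59% and 0.261%. Npr1 had at most 2 UMIs in any class and was not compared.

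**Figure D4:**
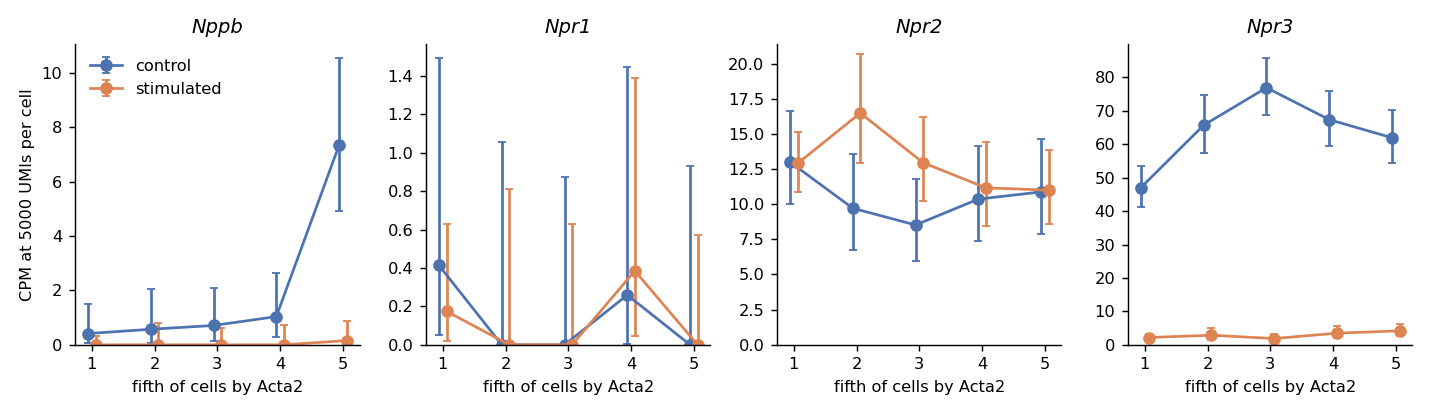
Level of Nppb, Npr1, Npr2 and Npr3 (y axes, CPM at 5000 UMIs per cell, each from 0) in 5 classes of the cells ordered by Acta2 (x axes), 1 being the lowest, in the control (blue) and stimulated (orange) libraries. Bars are exact Poisson 95% intervals; control Nppb reaches 7.33 CPM in class 5 against 1.04 CPM or less in the others, and Npr3 and Npr2 show no such step.

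Cells with Nppb carried Npr3 and Npr2 about as often as all other control cells did, a pool that includes macrophage-like and shallow cells. Of the 95 control cells with Nppb, 46 also carried an Npr3 UMI, 48.4%, against 51.9% of the other cells. An Npr2 UMI was seen in 16.8% of them against 17.0% of the others, and an Npr1 UMI in none. These shares are unthinned, and of control fibroblast-like cells alone 61.8% carried Npr3 and 20.6% Npr2. At 5000 UMIs per cell the shares were 22.2% against 24.4% for Npr3 and 7.41% against 5.06% for Npr2, but few cells then held Nppb. Nppa was seen in 8 of the 95 (8.42%) and in 32 of the other cells (0.694%), where the product of the shares gives 0.808 cells. At 5000 UMIs 53 control cells held Npr2 and Npr3 together, where the product of the shares gives 50.4. Npr3 and Nppc were together in 14 cells against 7.79, and cluster 3, the highest in Npr3, was also the highest in Nppc, at 25.9 CPM (21.0 to 31.7). Joint counts follow cell depth as well as expression.

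Control cells with Nppb were also high in muscle genes. Of 4019 genes with at least 25 CPM, 23 were at least 2-fold higher in these 95 cells than in the other control cells, 0.572%, and 30 at least 2-fold lower, 0.746%. The highest ratio was that of Acta1, the skeletal actin gene, at 568 against 90.6 CPM, 6.26-fold (5.89 to 6.65), with UMIs in 56 of 95 cells. Igfbp2 was 5.78-fold higher with UMIs in 20 cells, so this ratio rests on few of them. Tgfb3, which encodes a TGF-beta ligand, was 3.89-fold higher, and Myh11, a myosin heavy chain gene of smooth muscle, 3.77-fold. The stretch-responsive Ankrd1 was 2.86-fold higher, the myosin light chain kinase gene Mylk 2.49-fold and the enteric actin gene Actg2 2.44-fold. Cav1, the caveolin gene, and Itga5, an integrin subunit gene, were 2.70-fold and 2.41-fold higher. Removing the cell with most Nppb left each of these ratios between 2.40 and 6.29 and the number of genes at 23.

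By list, 6 of 24 contractile genes were at least 2-fold higher in the cells with Nppb and none lower, with a median log2 ratio of 0.74. Among genes that mark cardiac stress, where Nppb is itself the classic member, 3 of 8 were higher and none lower, with a median of 0.65. None of 6 natriuretic pathway genes passed in either direction (median 0.11). The median of all 4019 genes was 0.04. Cells were chosen by their Nppb UMIs, which favours deep cells, and ratios are of CPM.

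**Figure D5:**
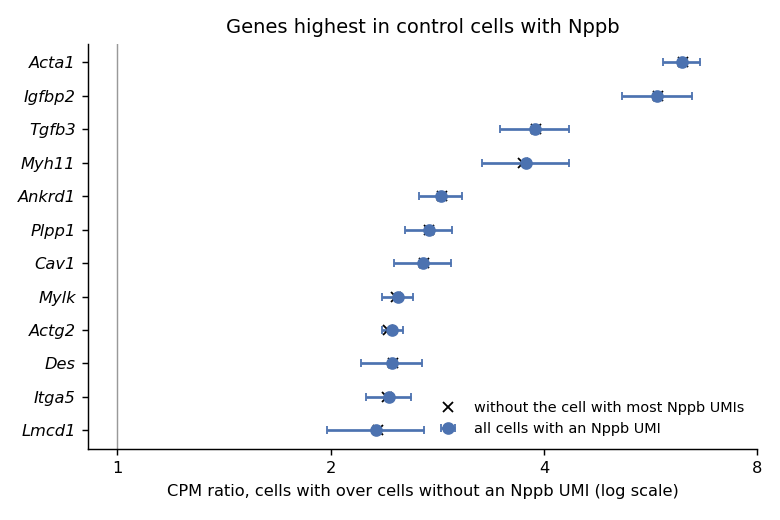
The 12 genes with the highest CPM ratio (x axis, log scale) between the 95 control cells with an Nppb UMI and the other control cells, among genes of at least 25 CPM. Circles with bars are ratios with 95% counting intervals and crosses the ratios without the cell that held most Nppb; Acta1 leads at 6.26-fold and the crosses lie within the bars.

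The other genes of the pathway, listed as ligand processing enzymes, cyclic GMP kinases, phosphodiesterases and partners, were mixed. Of 34 names 31 were in the files and 15 reached a mean of 5 CPM; 1 was at least 1.5-fold higher and 5 were lower, with a median log2 fold of -0.34. Among all genes compared 7.75% were at least 1.5-fold higher and 12% lower, with a median of -0.06. Prkg2, the gene of the type II cyclic GMP-dependent kinase, was the one that was higher, with a level of 43.9 CPM against 7.29 CPM, a fold of 6.01 (5.54 to 6.54). Prkg1, the gene of the type I kinase of smooth muscle, had only 169 and 149 UMIs.

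Mrvi1, a substrate of that type I kinase that curbs calcium release, was 3.82-fold lower (3.39 to 4.31). Pde5a, which encodes the phosphodiesterase that breaks down cyclic GMP and is blocked by sildenafil, was 3.03-fold lower (2.69 to 3.42), with 398 UMIs against 912. The cytoskeletal kinase substrate gene Vasp was 1.52-fold lower, the phosphodiesterase gene Pde1a 1.60-fold lower and the inhibitory G protein gene Gnai1 1.75-fold lower. Gnai2 and Gnai3, of the same G protein class to which NPR3 is reported to couple, were at 356 against 463 CPM and 52.8 against 56.9 CPM. Furin, which encodes a protease that cleaves the peptide precursors, was at 39.9 CPM against 50.6 CPM. Pde3a and Pde3b had folds of 1.06 and 1.22.

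Of the 23 cardiac stress genes 13 were compared, 7 of them at least 1.5-fold lower and 2 higher, with a median log2 fold of -0.84. Acta1 was at 2.78 CPM against 102 CPM, and Ctgf, which encodes a matricellular growth factor, 3.49-fold lower. Cyr61, of the same protein family as Ctgf, was 1.81-fold lower. Fhl1, a LIM-domain protein gene of muscle, was 5.11-fold lower (4.97 to 5.25) and Ankrd1 2.89-fold lower (2.80 to 2.99). Hspb7, a small heat shock protein gene of muscle, went the other way at 241 CPM against 44.8 CPM, 5.38-fold higher (5.20 to 5.56), and the muscle transcription factor gene Mef2c was 1.56-fold higher. Gata6, a GATA factor gene, was at 20.6 CPM against 17.8 CPM. Of 24 contractile genes compared 17 were at least 1.5-fold lower and none higher, with a median log2 fold of -1.05. Myh11 was 72.3-fold lower (54.0 to 99.0), the calponin gene Cnn1 11.7-fold and Actg2 11.1-fold. The most abundant, Acta2, Tagln, Tpm1, Cald1 and Myl6, were 2.93, 2.45, 2.58, 1.97 and 1.46-fold lower. Des had a fold of 1.31 over all cells and was 2.96-fold lower in fibroblast-like cells alone, but that set leaves out cluster 14 because Des leads it and keeps control cluster 3, so the lower value follows in part from the choice of cells.

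By the likeness measure used, Pearson's r over cells thinned to 5000 UMIs, no gene reached the 0.2 set for naming a gene as like a receptor gene that was ranked. For control Npr3, over 4077 cells, the highest r was 0.199, with the matricellular gene Thbs1, and for stimulated Npr2, over 6708 cells, 0.05. The r of Acta2 was 0.04 with control Npr3, 0.03 with stimulated Npr3, and -0.02 and -0.01 with control and stimulated Npr2. These cells share library, depth after thinning and sparse counts.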

How the data were processed

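Single-cell RNA was measured in 1 control and 1 stimulated library, from cells of the 3′ droplet chemistry that the labels name. The deposited values are raw UMI counts of each gene in each barcode, not normalized. The matrices name software version 3.0.2 per the file headers. Cell Ranger 1.3.1 and Seurat 3.0.0 appear in the submitters' processing notes. Genome build, annotation and barcode filter: not given in the sources used here.

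Barcodes with at least 500 genes and at most 20% mitochondrial UMIs were kept, leaving out 269 and 44 control and 212 and 18 stimulated barcodes. Kept cells held 88573140 and 117193148 UMIs. Scrublet in scanpy 1.11.5 (Python 3.11.15) marked 1 and 0 cells, too few for a working caller, so doublets remain. Both libraries were clustered together without integration: 2000 variable genes without the 4 genes and Acta2, 30 components, 15 neighbours, Leiden resolution 0.5, 17 clusters. A cluster was named from marker lists: at least 3 markers seen in 25% of cells and, for types other than fibroblast, at least 2 among 10 leading genes. A cluster with more leading markers of another type than of fibroblasts stayed unnamed (cluster 14, through Des), as did shallow clusters led by no marker of their type.

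A fold is the stimulated over the control CPM of summed counts, with an exact conditional-Poisson interval; a sum of 0 was set at 3 counts. The comparison of all genes required 5 CPM in the mean of both libraries. Shares have exact binomial intervals. Relations to Acta2 used cells of at least 5000 UMIs, thinned to 5000, which left out 626 control and 760 stimulated cells. Clusters were paired by at least 2 shared leading genes. Shared 3′ ends were found with minimap2 2.31: windows of 90 bases from the last 400 of GENCODE M21 transcripts with at most 2 mismatches to another listed gene. Fold and class calculations were tested on simulated data. TMM factors came from edgeR 4.0.16. Alternatives were scaling, cell filters, thinning depth, number of classes and clustering.

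Named genes were the 4 members, the 5 most abundant and 3 largest folds each way per list, the genes of highest correlation with a member, and others picked after their values were seen (those highest in cells with Nppb, and single list members). The members, lists and rules were chosen with earlier results of these data known. Splits within clusters and the removal of the highest Nppb cell were added after seeing the data.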

Additional observations from a re-analysis of the deposited data

How the results depend on the processing

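The folds of Nppb, Npr1 and Npr2 stayed within their counting intervals under every alternative tried: other scaling, all barcodes, a stricter mitochondrial filter, fibroblast-like cells, cells not in cycle, equal weight per cell and without the highest Scrublet scores. The fold of Npr3, 0.0425 stimulated over control, was 0.0150 in fibroblast-like clusters alone and 0.0173 without the cluster highest in Npr3 in each library, since the Hsd3b6-led stimulated cluster is then left out, and 0.0484 in cells not in cycle, where the cause was not tested. The ratio of Nppb between the ends of the Acta2 order ranged from 7.73 (10 classes, a bound, since the lowest held no UMI) to 56.1 (unthinned counts), within its wide interval throughout. The ratio of stimulated Npr3 reversed to 0.761 at 2000 UMIs per cell, 0.934 at 10000 and 0.778 in fibroblast-like clusters. The last of these sets leaves out cluster 14 and held 5 Npr3 UMIs in the highest and 12 in the lowest class. The cause of these reversals was not tested. Genes at least 2-fold apart numbered 734, 336 with a mean of at least 20 CPM and 3737 with no filter, where fewer or more genes were counted. Among clusters of at least 50 cells and a median of at least 5000 UMIs, the highest control level of Npr3, 150 CPM, was 108 at resolution 1.0 and 118 with the members among the variable genes, where that of Npr2 was 12.2 in place of 15.9. Nppb by cluster moved as well. At resolution 1.0 its highest control cluster, led by Nppb and with Acta2 and Tagln among its leading genes, was at 25.9 CPM from 44 UMIs. That cluster had 289 control cells, where cluster 7 had 282 with 14 Nppb UMIs. Of its 151 cells with at least 5000 UMIs, 4 had an Nppb UMI after thinning. Since 1 control cell alone held 30 Nppb UMIs, this level can rest on very few cells. The part of that cell in it was not tested. The Hsd3b6-led control cluster, 213 cells at 0.540 CPM from 2 UMIs, was at resolution 1.0 a larger set of 397 cells. Its Nppb level there was 5.65 CPM from 44 UMIs. With the members among the variable genes the Hsd3b6-led control cluster had 335 cells and was at 6.45 CPM from 40 UMIs.

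No paired analysis was possible because each group has 1 library and the labels give no replicate numbers. Depth limits Npr1 in both libraries and Nppb in the stimulated one. A single cell held 30 of the 181 control Nppb UMIs, and without it the fold was 0.0350.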

Other observations

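Nppc, the C-type peptide gene, was highest in the stimulated cells with least Acta2, without an even fall over the classes. It was at 6.19 CPM in class 1 of stimulated cells by Acta2 (4.83 to 7.80) and 1.86 CPM in class 5 (0.961 to 3.25). Classes 2 to 4 were at 2.64, 3.07 and 2.50 CPM. Without thinning, 3.70, 3.41, 3.84, 2.02 and 2.09% of the cells in classes 1 to 5 had an Nppc UMI. The ratio of class 5 to class 1 was 0.300 (0.148 to 0.558), and 0.302 in fibroblast-like cells alone. With 10 classes the ratio was 0.413 (0.172 to 0.859), and with cells ordered by the other contractile genes 0.503 (0.265 to 0.916). The 10 highest cells held 30.9% of the stimulated Nppc UMIs, so these intervals, which treat UMIs as independent, are too narrow. Of genes at 1 to 5 CPM there, 8.99% were at least 2-fold lower in class 5. Stimulated clusters of at least 50 cells did not keep this order. Cluster 15, highest in Acta2 at 2832 CPM, was at 6.23 CPM of Nppc. Cluster 9, lowest in Acta2 at 338 CPM, was at 0.540 CPM of Nppc from 2 UMIs. In the control library the ratio of class 5 to class 1 was 1.36 (0.497 to 3.79). The clusters that held Nppc differed too: cluster 3, led by Hsd3b6, held 45.1% of its control UMIs in 4.53% of the cells, whereas its stimulated counterpart, cluster 14, was at 2.94 CPM, 8.81-fold lower (5.70 to 14.0). In the clusters 0 and 10, 2 and 15, and 4 and 11, Nppc was instead 3.58, 2.25 and 2.60-fold higher in the stimulated library. These cells were few, 80 control and 215 stimulated cells with a UMI.

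Other genes around cyclic GMP lay below the mean of 5 CPM. Mme, which encodes neprilysin, a protease that degrades natriuretic peptides, had 21 control and 98 stimulated UMIs, a fold of 3.53 (2.18 to 5.95). Pde2a, a phosphodiesterase gene stimulated by cyclic GMP, had 291 control and 69 stimulated UMIs, 5.58-fold lower (4.28 to 7.36). Gucy1b3 and Gucy1a3, which encode the subunits of soluble guanylate cyclase, the receptor for nitric oxide, had 260 against 12 and 76 against 5 UMIs, 28.7-fold (16.1 to 56.2) and 20.1-fold (8.25 to 63.7) lower. Mme, Pde2a and both cyclase genes were singled out after their values were seen.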
